A study of Homo sapiens with 39 samples.

Results

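RNA levels of 9 genes of MHC class I antigen presentation (HLA-B, HLA-C, HLA-E, B2M, TAP1, TAP2, TAPBP, PSMB9 and NLRC5) were followed in 39 RNA-seq libraries from A375 and WM115, established lines of human melanoma. The genes were taken by name from a table of 60671 distinct Ensembl identifiers, and each of the 9 symbols had 1 identifier there. Both lines were profiled unedited (WT) and as clones labelled R1_del or R4_del, in which a SOX10 enhancer region, R1 or R4, is deleted. For A375 there were 4 WT libraries, with 3 and 4 libraries for the R1 clones 1.1 and 1.2 and 4 and 3 for the R4 clones 4.1 and 4.2. For WM115 there were also 4 WT libraries, with 5 and 3 for clones 1.1 and 1.2, 3 each for clones 4.1 and 4.2, and 3 for a further clone, 1.3. Clone 1.3 is titled as R1 but has the genotype label R4_del, so it was kept apart. No treatment is named for any group, so none of the libraries is labelled as interferon-stimulated. Libraries of a clone repeat that 1 clone, and no label says that they came from separate cultures, so p-values over libraries measure the spread between libraries of a clone, which may be technical.

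MHC class I molecules carry peptides from proteins made inside the cell to its surface, where CD8 T cells and natural killer cells read them. The immunoproteasome, of which PSMB9 is a catalytic subunit, cuts the peptides, the transporter TAP1-TAP2 moves them into the endoplasmic reticulum, and tapasin (TAPBP) holds the empty molecule next to that transporter. The molecule itself is a heavy chain (HLA-B and HLA-C, or the less variable HLA-E) paired with the light chain beta-2 microglobulin (B2M). NLRC5 is the class I transactivator, which acts with RFX, CREB or ATF and NF-Y proteins at an SXY module in class I promoters, and interferon gamma acts in part through IRF1. Loss of these genes, B2M among them, is a known route by which melanomas escape T cells.

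Values are TPM, a share of each library's transcripts corrected for gene length, so levels of different genes can be set side by side. Read depth is unknown, because no counts came with the TPM. The share of TPM from mitochondrial genes lay between 0.968% and 4.92% in A375 and between 4.71% and 19.4% in WM115. All 4 WM115 WT libraries were among the 15 of 21 WM115 libraries with a share above 7.5%. Ribosomal protein genes took 11.1% to 12.8% of the TPM in WM115 WT, 15.1% to 17.4% in its 4 R1 and R4 clones and 10.6% to 16.8% in clone 1.3. Of 10 melanocytic markers, A375 libraries had 2 or 3 at 1 TPM or more, SOX10 and MITF among them, and WM115 libraries had 4 to 8. In A375, TYR did not pass 0.023 TPM in any library and DCT did not pass 0.166 TPM. SOX10 had a level of 9.56 TPM in library 3 of WM115 clone 1.2, against 279 TPM in the highest library of that clone. Differences of the class I genes in WM115 are therefore also given without that library where it matters, while correlations are not. Of 10 immune cell markers, 1 or 2 were at 1 TPM or more in any library. PTPRC, CD3D, CD3E and MS4A1 stayed at or below 0.483 TPM, and CD68 made up most of the summed level (26.7 to 170.1 TPM in A375 and 232 to 759 TPM in WM115). Other markers of that list were higher. LYZ had 1.225 to 12.3 TPM in A375, and in WM115 ITGAM reached 10.96 TPM and CD14 1.187 TPM. In bulk RNA, fewer cells of a type and less RNA per cell cannot be told apart.

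Except for B2M on chromosome 15 and NLRC5 on chromosome 16, the genes lie in the MHC region of chromosome 6, between 30489467 and 33314387 (GENCODE 29, GRCh38). TAP1 and PSMB9 are neighbours read in opposite directions, and in RefSeq (GRCh38.p14) their start sites are 488 bases apart. RefSeq promoter windows of 300 bases, 250 before and 50 after a start site, matched 7 of the 9 genes, in 8 windows because TAP1 has 2. The windows were searched on both strands for AANNGAAA (the core that interferon regulatory factors recognise), GGGANTCCC (a form of the NF-kB site), TGACGC (the X2 box of the SXY module) and CCAAT (its Y box). The stretches below are shown because HLA-B and HLA-C share the layout of the SXY module while their levels are the ones that moved most in A375, and because B2M, TAP1 and TAPBP carry paired IRF cores. Capitals mark matches to any of the 4 motifs, and positions count from 0 at the start site.
HLA-B chr6:31357220-31357374, minus strand: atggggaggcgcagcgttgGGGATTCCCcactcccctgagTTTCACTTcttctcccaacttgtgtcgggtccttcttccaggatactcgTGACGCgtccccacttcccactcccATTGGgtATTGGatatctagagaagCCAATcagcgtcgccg
HLA-C chr6:31272133-31272287, minus strand: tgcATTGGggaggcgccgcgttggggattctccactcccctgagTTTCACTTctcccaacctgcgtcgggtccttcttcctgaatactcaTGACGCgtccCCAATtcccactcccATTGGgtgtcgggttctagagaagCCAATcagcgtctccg
B2M chr15:44711357-44711481, plus strand: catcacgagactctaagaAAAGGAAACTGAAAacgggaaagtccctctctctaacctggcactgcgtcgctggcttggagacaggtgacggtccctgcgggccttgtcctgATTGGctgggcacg
TAP1 chr6:32853755-32853854, minus strand: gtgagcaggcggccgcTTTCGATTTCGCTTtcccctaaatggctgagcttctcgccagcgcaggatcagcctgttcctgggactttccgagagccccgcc
TAPBP chr6:33314079-33314138, minus strand: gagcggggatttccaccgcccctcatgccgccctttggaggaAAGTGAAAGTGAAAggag

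HLA-B and HLA-C each carried TGACGC, at -106 and -105. CCAAT or its reverse ATTGG followed at -81, -74 and -56 in HLA-B and at -95, -80 and -56 in HLA-C. GGGANTCCC was matched in HLA-B alone among the 8 windows, and 0.877% of all 35116 windows of that length hold it. AANNGAAA was matched in 6 of the 8 windows, against 22.8% of all windows, TGACGC in 3 of 8 against 9.14%, and CCAAT in 5 of 8 against 34.6%. The windows of TAP1 and PSMB9 overlap, and their CCAAT matches are the same bases, counted in both windows. In B2M, TAP1, TAP2 and TAPBP the IRF cores came as overlapping pairs, at -142 and -136 in B2M, -134 and -128 in TAP1, -62 and -56 in TAP2 and -18 and -12 in TAPBP. These matches describe letters in the windows, and the libraries hold no measure of binding.

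WT cells of both lines had RNA of all 9 genes, and WM115 WT had more of each. In A375 WT the mean levels ran from B2M at 1039 ± 224 TPM (SD, n = 4) over HLA-B at 461 ± 187, HLA-C at 381 ± 125, HLA-E at 78.0 ± 13.8, TAP2 at 59.4 ± 19.0, TAPBP at 45.8 ± 9.47, TAP1 at 21.6 ± 1.29 and PSMB9 at 21.4 ± 3.75 down to NLRC5 at 4.79 ± 1.52. Neighbours in that order overlapped between libraries for HLA-B and HLA-C, HLA-E and TAP2, TAP2 and TAPBP, and TAP1 and PSMB9. The other steps did not overlap. WM115 WT had 2309.5 ± 792 TPM of B2M and 2225 ± 545 of HLA-B (SD, n = 4), which overlapped. HLA-C followed at 1492 ± 321, HLA-E at 255 ± 21.3, TAPBP at 172 ± 51.5, TAP2 at 156 ± 16.6, PSMB9 at 66.3 ± 7.52, TAP1 at 57.8 ± 8.78 and NLRC5 at 9.31 ± 1.23. Libraries of HLA-B and HLA-C also overlapped, as did those of HLA-E and TAPBP, TAPBP and TAP2, and PSMB9 and TAP1, while the remaining steps did not overlap.

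A gene is called here when its adjusted p is under 0.05 over all genes tested and its difference on the log2(TPM + 1) scale is at least 1 in size, a 2-fold change. That scale understates changes of low genes such as NLRC5. Between the WT libraries of the lines, 8 of the 9 were called, all higher in WM115, where 22.7% of all 16126 genes tested were called in either direction. At an adjusted p under 0.05 with no minimum difference, all 9 passed, as did 47.9% of all genes. The log2 differences were 2.33 for HLA-B (SE 0.30, adjusted p 0.000175), 2.002 for HLA-C, 1.71 for HLA-E, 1.11 for B2M, 1.37 for TAP1, 1.43 for TAP2, 1.86 for TAPBP and 1.60 for PSMB9. NLRC5, at 0.86 (SE 0.20, adjusted p 0.00639), stayed under 2-fold. For every member each of the 4 WM115 libraries lay above the 4 A375 libraries. How many of all genes were separated between the lines in this way was not counted. Without WM115 WT library 4 the B2M difference was 0.93 and no longer called, and without A375 WT library 4 the NLRC5 difference was 1.01 and called. The median over the 9 genes was 1.60 and over all genes 0.04. Cell type markers differed between the WT lines as well. COL1A2, a fibroblast or undifferentiated marker, was at 365 TPM or more in every WM115 library and at most 0.345 TPM in A375 (log2 difference between WT 8.95), and LUM differed by 2.03. DCT, a melanocytic marker, differed by 9.21 and CD68 by 3.39. Other markers of the same lists were lower in WM115 WT, among them LYZ (-2.17), PDGFRB (-1.03), DCN (-0.72) and SOX10 (-0.43). The part of these in the member values was not tested. HLA alleles can differ between lines, and for HLA-B and HLA-C allele and level cannot be told apart across lines.

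**Figure D1:**
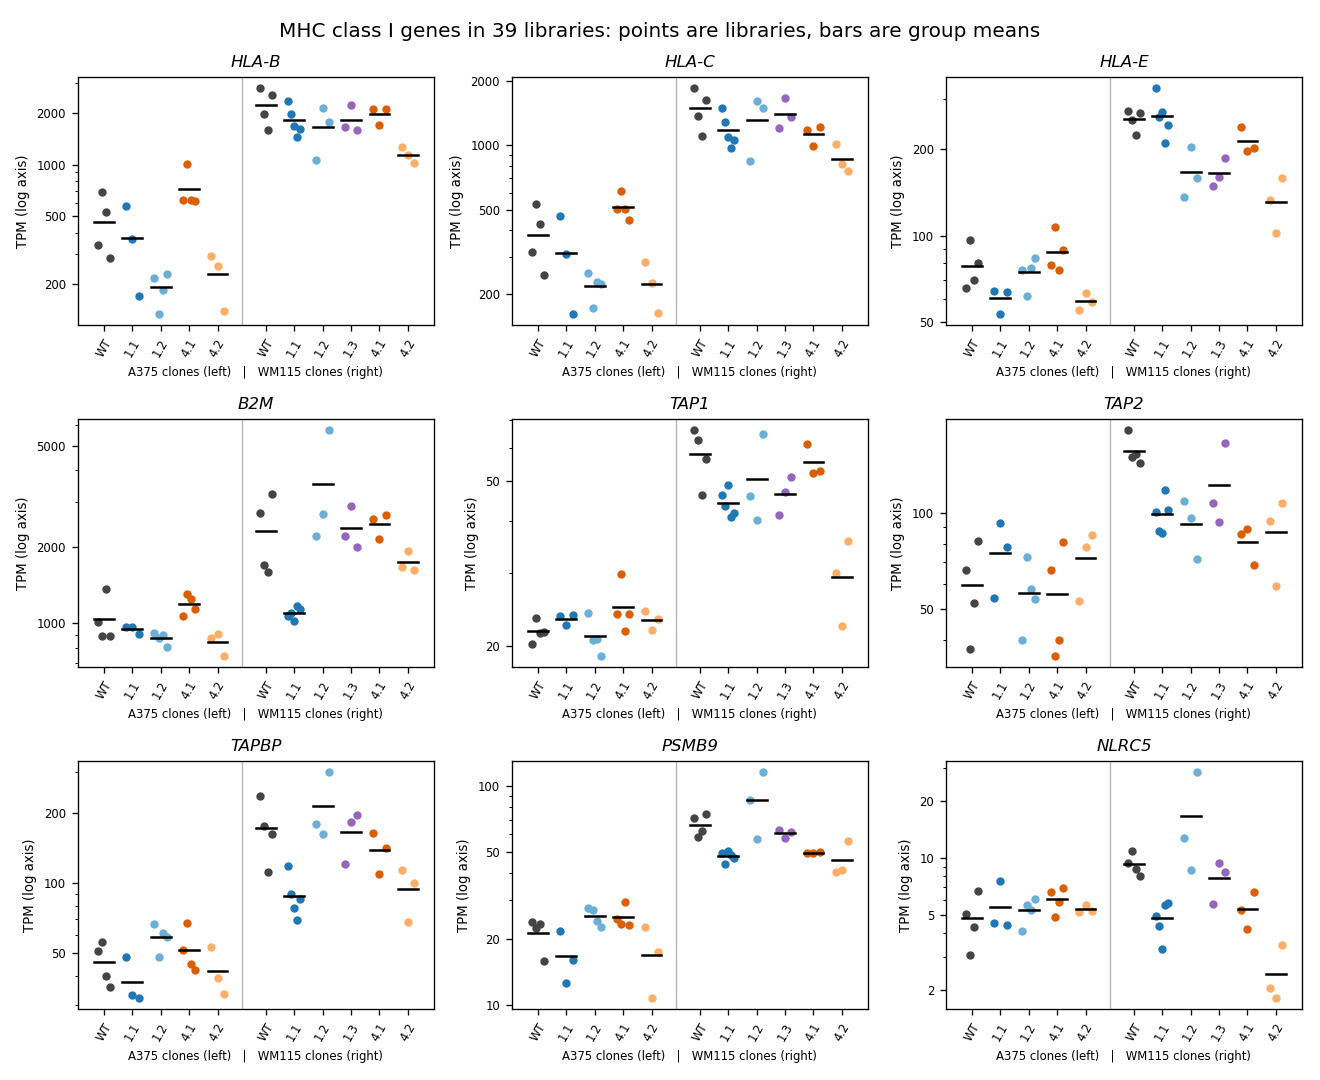
TPM (log axis) of the 9 class I genes by line and clone, where each point is a library and each bar a group mean. Each WM115 library lies above each A375 library for HLA-B and HLA-C, while 1 HLA-E value of WM115 clone 4.2 (102 TPM) lies below the highest of A375 (107 TPM), and NLRC5 is lowest in WM115 clone 4.2 (1.82 to 3.48 TPM).

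Against WT of their own line, most clones had no called member. In A375, 1 of 9 members was called in clone 1.2 (HLA-B, lower), where 4.01% of all 16692 genes were called. None was called in clone 1.1, clone 4.1 or clone 4.2, where 0.731%, 0.653% and 0.473% of genes were called and 1, 0 and 3 members had an unadjusted p under 0.05. In WM115, with 16997 genes tested, 1 member was called in clone 1.1 (B2M, lower; 4.88% of genes) and 1 in clone 4.2 (NLRC5, lower; 6.6% of genes). None was called in clone 1.2, clone 4.1 or clone 1.3, where 7.61%, 7.57% and 0.618% of genes were called and 3, 3 and 1 members had an unadjusted p under 0.05. Smaller differences passed the adjusted p more often. With no minimum difference, 5 of 9 members passed in WM115 clone 1.1 (22% of genes) and 8 in clone 4.2 (20.3%). Clones 1.2, 4.1 and 1.3 had 2, 1 and 0 such members, beside 22.6%, 24.2% and 1.06% of genes. In A375, HLA-B in clone 1.2 was the 1 member to pass in the fit without pairs, where 8.53% of genes did. In the paired limma fit of clone 4.1 with WT, described below, HLA-B and HLA-C passed too (adjusted p 0.0129 and 0.0291). How many of all genes passed in that paired fit with no minimum difference was not counted. At 2-fold it called 246 of all genes. In clones 1.1, 4.1 and 4.2 of A375 the share of genes that passed without pairs was 1.04%, 1.31% and 0.557%. The shares of members that passed in clones 1.1 and 4.2 of WM115 were above the shares of all genes. Those in WM115 clones 1.2, 4.1 and 1.3 were near or below the shares of all genes. All clones of a line share its WT libraries, so these counts are not independent of each other.

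**Figure D2:**
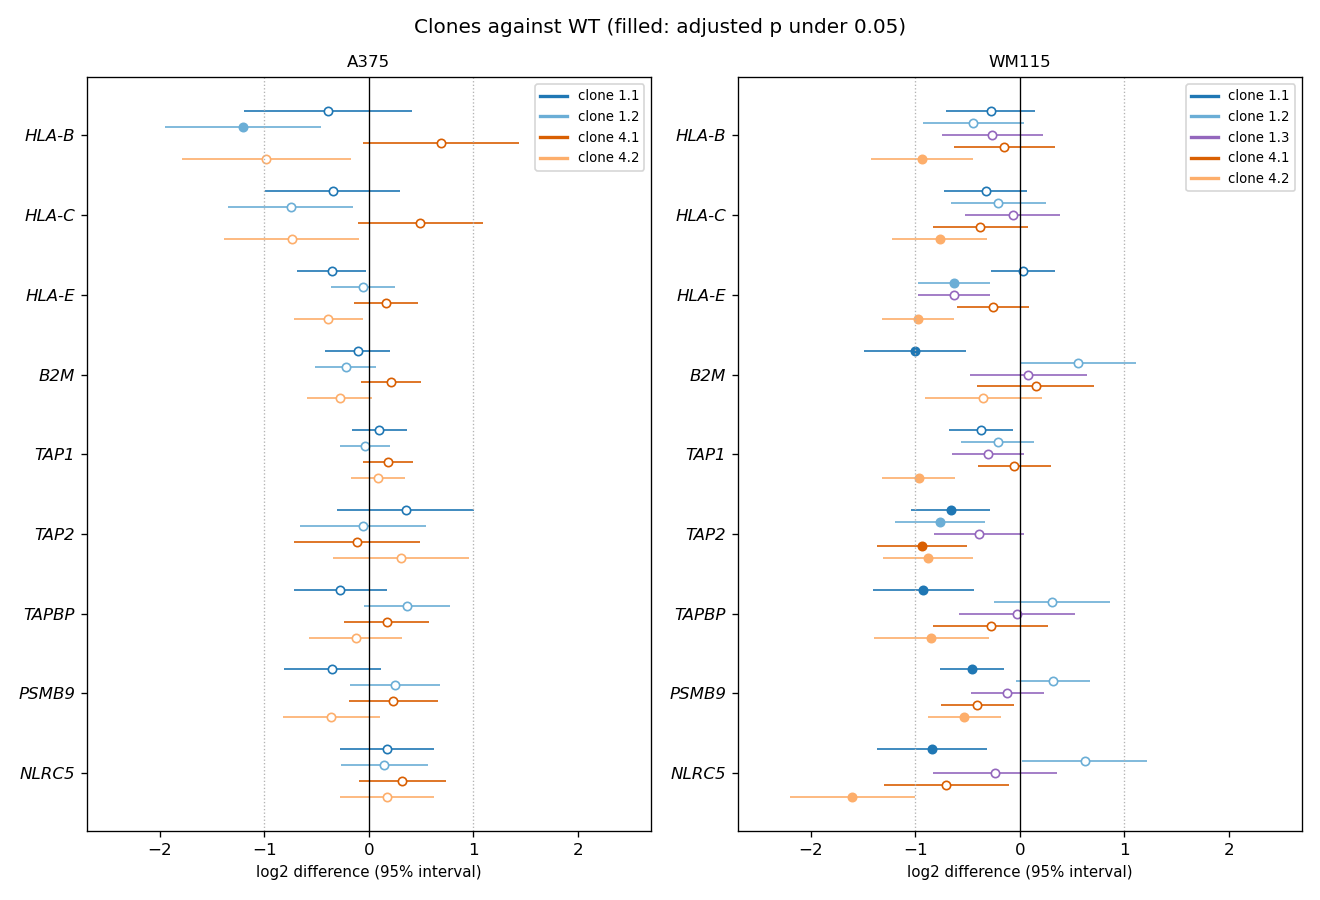
Log2(TPM + 1) difference of each clone from WT of its line for the 9 genes, with the 95% interval of the limma fit without pairs; filled points have an adjusted p under 0.05 and dotted lines mark a 2-fold change. In WM115 clone 4.2 all 9 points lie below 0 and 8 are filled, while in A375 the point of HLA-B in clone 1.2 is the 1 that is filled.

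HLA-B, a heavy chain that presents peptides to CD8 T cells, was the member whose level varied most between A375 libraries. The WT libraries had 338, 692, 529 and 283 TPM, and those of clone 1.2 had 218, 134, 184 and 228 TPM. All 4 libraries of clone 1.2 lay below the lowest WT library, with a log2 difference of -1.20 (SE 0.35, adjusted p 0.0428). The call was not stable. It was lost on leaving out any 1 of the 4 clone libraries or WT library 1, 2 or 3 (adjusted p 0.0542 to 0.129, log2 difference -0.98 to -1.32), and within the libraries with a mitochondrial share under 2.5% (adjusted p 0.574, log2 difference -1.23). Clone 4.2 had 292, 256 and 139.8 TPM, which overlapped WT, and a log2 difference of -0.98 (SE 0.38, adjusted p 0.556). Clone 1.1 spread over 571, 369 and 170.2 TPM, a spread nearly as wide as that of WT.

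A375 clone 4.1 lay at the other end, with 625, 1003, 623 and 612 TPM of HLA-B. Its log2 difference was 0.69 (SE 0.35, adjusted p 0.534), and libraries 1, 3 and 4 fell inside the WT range. Same-numbered libraries of this clone and WT deviated together across genes, so they were also fitted as pairs. With the replicate block, the difference of HLA-B was the same size with an adjusted p of 0.0129, and that of HLA-C was 0.49 with an adjusted p of 0.0291. Neither reached a 2-fold change, and over all genes the paired fit called 246 in place of 109. HLA-B and HLA-C, the other peptide-presenting heavy chain here, moved in step. HLA-C had 315, 530.5, 430.0 and 247 TPM in WT, 504, 609, 506 and 448 TPM in clone 4.1, 252, 173, 228 and 224 TPM in clone 1.2, and 283, 225 and 163 TPM in clone 4.2. Its log2 differences from WT were -0.75 in clone 1.2 (adjusted p 0.126) and -0.74 in clone 4.2 (adjusted p 0.588). HLA-E, which presents leader peptides of other class I chains to the NKG2A receptor of natural killer cells, spanned 53.3 to 107 TPM over all A375 libraries. Its libraries lay below all WT libraries in clones 1.1 and 4.2, with log2 differences of -0.36 and -0.39 and adjusted p-values of 0.451 and 0.564.

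In WM115 the 3 heavy chains were lower in clone 4.2 and did not pass in most other clones. HLA-B had 2788, 1968, 1593 and 2554 TPM in WT and 1259, 1142 and 1016 TPM in clone 4.2, with no overlap. Its log2 difference was -0.94 (SE 0.23, adjusted p 0.00894), just under 2-fold. HLA-C had 1849, 1373, 1109.8 and 1635 TPM in WT and 1015, 820.3 and 761 TPM in clone 4.2 (log2 difference -0.77, SE 0.22, adjusted p 0.0180). HLA-E had 272, 254, 225 and 269 TPM in WT and 133, 102 and 159 TPM in clone 4.2, again without overlap (log2 difference -0.97, SE 0.16, adjusted p 0.000744). HLA-E was also lower in clone 1.2, with 136, 204 and 159 TPM and a log2 difference of -0.63 (adjusted p 0.0129), where the adjusted p became 0.0684 without library 3. In clone 1.3 the HLA-E difference was equally -0.63, with an adjusted p of 0.0842. In clones 1.1 and 4.1 the 3 heavy chains had log2 differences between -0.38 and 0.03, and their adjusted p-values did not fall below 0.212.

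B2M, the light chain that every class I molecule needs, set WM115 clone 1.1 apart. Its 5 libraries had 1072, 1097, 1022, 1176 and 1135 TPM, against 2716, 1697, 1600.1 and 3225 TPM in WT, so all 5 lay below the lowest WT library. B2M fell by 1.01 on the log2 scale (SE 0.23, adjusted p 0.00535). The size sits at the threshold of a call. It was -0.86 after median-of-ratios scaling, which moved the median of all genes in this clone from -0.12 to -0.00, and -0.93 with a mitochondrial share above 7.5% as a term of the fit. Leaving out WT library 1 or 4 gave -0.91 and -0.82, and leaving out clone library 1 or 3 gave -0.997 and -0.98, each below the 2-fold minimum with an adjusted p under 0.05. Within the libraries above 7.5% mitochondrial share the difference was -0.93 with an adjusted p of 0.161. All 575 genes tested on chromosome 15, where B2M lies, had a median log2 difference of -0.39 in this clone, and all genes one of -0.12. The part of that chromosome-wide shift in the B2M value was not tested.

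B2M varied in the other direction in WM115 clone 1.2, with 2216, 2695 and 5735 TPM. Library 3, the one with little SOX10, was the highest of all 39 libraries. The log2 difference from WT was 0.56 (adjusted p 0.138), and 0.15 without library 3. B2M in the remaining WM115 clones stayed within the WT range, at 2579.7, 2139 and 2667 TPM in clone 4.1, 1667, 1923 and 1624 TPM in clone 4.2 and 2217, 2889 and 1995 TPM in clone 1.3. Clone 4.2 is thus the clone in which the heavy chains passed and B2M, at -0.35 (SE 0.27, adjusted p 0.369), did not. In A375 every clone kept B2M between 747 and 1304 TPM, against 890.1 to 1364 TPM in WT, and its log2 differences lay between -0.28 and 0.21.

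The peptide transporter genes were also compared with WT in WM115. TAP2, the transporter's B subunit, had 180.4, 149, 152 and 143 TPM in WT. It had 100.5, 87.4, 86.1, 117 and 102 TPM in clone 1.1, 109, 96.2 and 71.8 in clone 1.2, 85.9, 88.6 and 68.6 in clone 4.1 and 94.3, 59.1 and 107 in clone 4.2. Every library of these 4 clones lay below every WT library. The log2 differences were -0.66 (adjusted p 0.0141), -0.77 (adjusted p 0.0141), -0.94 (adjusted p 0.00327) and -0.88 (adjusted p 0.00647). TAP2 was the 1 member that passed the adjusted p in all 4, although it was not called at 2-fold in any. Of all genes, 22%, 22.6%, 24.2% and 20.3% passed in clones 1.1, 1.2, 4.1 and 4.2. How many genes passed in all 4, or lay wholly below WT in all 4, was not counted. The 4 clones share the WT libraries, whose share of ribosomal protein RNA was lower than theirs. The part of that share in the TAP2 result was not tested. Within the libraries of high mitochondrial share the differences were -0.50, -0.77, -1.17 and -0.96, with adjusted p-values of 0.290, 0.0490, 0.116 and 0.0480. Without library 3 of clone 1.2 the value in that clone was -0.60 with an adjusted p of 0.116. Clone 1.3 had 107, 93.6 and 165 TPM, which overlapped WT (log2 difference -0.39, adjusted p 0.430). In A375, TAP2 ranged from 35.7 to 93.0 TPM and its log2 differences from WT ran from -0.11 to 0.35, none with an adjusted p below 0.697.

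TAP1, the other subunit, was lower in WM115 clone 4.2 alone among the clones at an adjusted p under 0.05. Its libraries had 30.0, 22.3 and 35.8 TPM, against 66.1, 62.7, 46.1 and 56.4 TPM in WT, with no overlap. The log2 difference was -0.97 (SE 0.17, adjusted p 0.000823), and it stayed between -0.79 and -1.12 over 15 alternatives, each with an adjusted p under 0.05. In clone 4.1 TAP1 had 61.4, 52.2 and 52.7 TPM and a log2 difference of -0.05. In A375, TAP1 was the steadiest of the transporter and loading genes, at 18.9 to 29.8 TPM over all libraries. TAPBP, which encodes tapasin, had 237, 176, 112 and 163 TPM in WM115 WT. It had 119, 90.2, 77.9, 69.6 and 85.7 TPM in clone 1.1 (log2 difference -0.92, SE 0.23, adjusted p 0.00857) and 114, 68.4 and 99.7 TPM in clone 4.2 (-0.85, SE 0.26, adjusted p 0.0296). In both clones the highest library overlapped the lowest WT library. Without WT library 3 the TAPBP difference in clone 1.1 was -1.11 and in clone 4.2 -1.04, which made both calls. Clone 1.2 had 180.0, 162 and 298 TPM of TAPBP, the last in library 3.

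PSMB9, the interferon-inducible proteasome subunit that takes the place of PSMB6, shares its promoter region with TAP1, and the annotated span of TAP1 lies within that of PSMB9. The counting is not stated to use strand, so reads of the 2 genes may not be fully separated. In WM115, PSMB9 had 71.1, 58.1, 62.0 and 74.1 TPM in WT, 49.4, 43.7, 50.5, 48.3 and 46.6 TPM in clone 1.1 and 40.5, 41.1 and 56.0 TPM in clone 4.2. The log2 differences were -0.46 (SE 0.15, adjusted p 0.0303) and -0.53 (SE 0.17, adjusted p 0.0309). Both clones lay wholly below WT, by less than 2-fold. Clone 4.1 had 49.3, 49.2 and 49.8 TPM, also wholly below WT, with an adjusted p of 0.0814. Clone 1.2 ran from 56.8 to 115 TPM. In A375, PSMB9 ranged from 10.8 TPM in a library of clone 4.2 to 29.6 TPM in a library of clone 4.1, and no clone passed.

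NLRC5, the transactivator of the class I genes, had the lowest level of the 9 and the largest called difference from WT. WM115 WT had 9.42, 10.9, 8.80 and 8.06 TPM, and clone 4.2 had 2.04, 1.82 and 3.48 TPM. NLRC5 fell by 1.60 on the log2 scale in clone 4.2 (SE 0.28, adjusted p 0.00104), and it was called in each of 15 alternatives, with values from -1.48 to -1.93. It was lower in clone 1.1 too, at 4.95, 4.34, 3.29, 5.63 and 5.76 TPM, all below WT (log2 difference -0.84, SE 0.25, adjusted p 0.0218). Clone 4.1 had 5.29, 4.23 and 6.58 TPM, again all below WT, with a log2 difference of -0.70 and an adjusted p of 0.0794. That p was 0.0203 when library 3 of clone 1.2, which widens the spread of this gene, was left out. Clone 1.2 had 12.7, 8.70 and 28.5 TPM, where the value of 28.5 is library 3. The 817 genes tested on chromosome 16, where NLRC5 lies, had a median log2 difference of -0.28 in clone 4.2 and -0.46 in clone 4.1, and the 857 on chromosome 6 had medians of -0.25 and -0.31. The median of all genes was -0.10 in both clones. The part of these shifts in the values of single genes was not tested. In A375, NLRC5 had 5.06, 3.06, 4.33 and 6.70 TPM in WT and stayed between 4.11 and 7.57 TPM in the clones, with log2 differences of 0.15 to 0.32 that did not pass.

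Over the 9 members, the median log2 difference in WM115 clone 4.2 was -0.88, beside -0.10 for all genes. It was -0.46 in clone 1.1 (all genes -0.12), -0.28 in clone 4.1 (all genes -0.10), -0.24 in clone 1.3 (all genes -0.03) and -0.21 in clone 1.2 (all genes -0.02). Median-of-ratios scaling brought the median of all genes to -0.00, 0.01 and 0.00 for clones 1.1, 4.1 and 4.2, and the medians of the members became -0.32, -0.14 and -0.75. The A375 medians were -0.27 in clone 1.1, -0.06 in clone 1.2, 0.21 in clone 4.1 and -0.28 in clone 4.2, with all genes between -0.02 and 0.07.

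Clones of the same deletion were compared directly. WT does not enter these differences, although all groups of a line share the estimate of spread behind the SE and p. In A375, HLA-B and HLA-C were called lower in clone 4.2 than in clone 4.1, 2 of 9 members, where 2.23% of genes were called. The log2 differences were -1.67 for HLA-B (SE 0.38, adjusted p 0.0217) and -1.23 for HLA-C (SE 0.31, adjusted p 0.0343). In both genes every library of clone 4.2 lay below every library of clone 4.1. How many of all genes did so was not counted. HLA-E was -0.56 with an adjusted p of 0.0570 and B2M -0.49 with one of 0.0719. Both calls were lost without library 2 of clone 4.1 (adjusted p 0.0751 and 0.0964) and without library 2 or 3 of clone 4.2 (adjusted p 0.0651 to 0.209). HLA-C was also lost without library 1 or 3 of clone 4.1 (0.0719 and 0.0813). Between A375 clones 1.2 and 1.1 no member was called, where 6.16% of genes were called and 3 members had an unadjusted p under 0.05. Without library 3 of clone 1.1, HLA-B was called there, at -1.29 (adjusted p 0.0370).

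In WM115, clone 1.2 exceeded clone 1.1 in B2M, NLRC5 and TAPBP, 3 of 9 members called, where 11.8% of genes were called. The log2 differences were 1.56 for B2M (SE 0.25, adjusted p 0.000176), 1.46 for NLRC5 (SE 0.27, adjusted p 0.000553) and 1.23 for TAPBP (SE 0.25, adjusted p 0.00119). PSMB9 was higher by 0.78 (adjusted p 0.00119) and HLA-E lower by -0.66 (adjusted p 0.00360), both under 2-fold. Without library 3 of clone 1.2 the values were 1.15 for B2M (adjusted p 0.00158), 1.01 for NLRC5 (adjusted p 0.00555) and 0.96 for TAPBP (adjusted p 0.0167), so TAPBP was no longer called. Clones 1.1 and 1.2 carry the same deletion label. The lowest library of clone 1.2 had more B2M, NLRC5, TAPBP and PSMB9 than the highest of clone 1.1. How many of all genes separated these clones in this way was not counted. Between WM115 clones 4.2 and 4.1 no member was called, where 2.63% of genes were called. TAP1 at -0.92 (SE 0.18, adjusted p 0.00352) and HLA-E at -0.71 (SE 0.18, adjusted p 0.0187) were lower in clone 4.2 by less than 2-fold, and TAP1 was called without library 3 of clone 4.2, at -1.07.

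**Figure D3:**
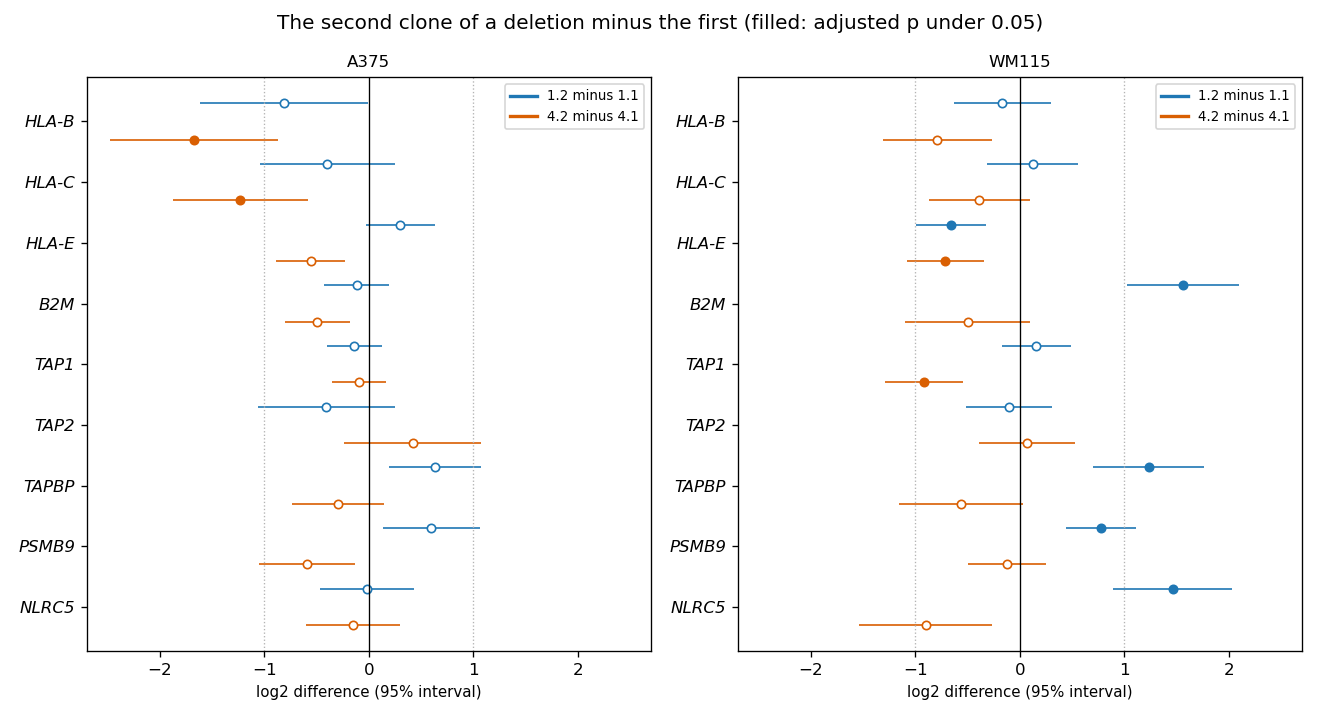
Log2(TPM + 1) difference between the clones of a deletion (1.2 minus 1.1 and 4.2 minus 4.1) for the 9 genes, with the 95% interval of the limma fit; filled points have an adjusted p under 0.05. HLA-B and HLA-C separate the R4 clones of A375 (-1.67 and -1.23), and B2M, NLRC5 and TAPBP separate the R1 clones of WM115 (1.56, 1.46 and 1.23).

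With the clone as the unit, no member differed between R1 and R4 deletions over the 8 clones of both lines. No gene of the 14894 tested was called by limma (0%), 641 genes had an unadjusted p under 0.05, and none of these was a member. The 95% interval of the R1 minus R4 difference was -1.13 to 0.65 for HLA-B, -0.84 to 0.58 for B2M and -0.39 to 1.35 for NLRC5, so changes of 2-fold lie inside some of them. Whether a deletion acted differently in the lines was tested with an interaction term, which has few degrees of freedom. No gene of 15167 was called for R1 (0%, 204 genes and no member at an unadjusted p under 0.05). None was called for R4 (0%, 386 genes at an unadjusted p under 0.05), where TAP2 was the 1 member with an unadjusted p below that level, at 1.005 (p 0.0339, adjusted p 0.999891). Clones that share a deletion label differed from each other by as much as -1.67 (HLA-B between A375 clones 4.2 and 4.1).

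Other genes of the pathway were read from the same fits. Values of these lists and of the cell type markers in WM115 clone 1.2 include library 3, the one with little SOX10. None are given without it. Of all genes, 4.88%, 7.61%, 7.57%, 6.6% and 0.618% were called in WM115 clones 1.1, 1.2, 4.1, 4.2 and 1.3. In A375 the shares were 0.731%, 4.01%, 0.653% and 0.473% in clones 1.1, 1.2, 4.1 and 4.2. The list of other class I and class I-like molecules had 8 genes tested in WM115. In clone 4.2, 3 of these fell and none rose: HLA-F (55.7 ± 5.03 TPM in WT, n = 4, and 26.4 ± 1.66, n = 3; log2 difference -1.05), MR1 (-1.84), which presents vitamin B metabolites, and MICA (-1.20), a ligand of the activating receptor NKG2D. MR1 and MICA fell in clone 4.1 as well, at -1.58 and -1.15, where CD1D rose by 1.23. None of the 8 was called in WM115 clones 1.1, 1.2 and 1.3, and none of 7 in A375. Of 20 genes of peptide supply and loading, PSMB10, an immunoproteasome subunit, fell in WM115 clone 4.2 (-1.05). PSME1, a subunit of the PA28 proteasome activator, and CALHM6 rose in clone 1.2 (1.11 and 1.99), and CALHM6 fell in A375 clone 4.1 (-1.47). PSMB8, the neighbour of TAP1 and TAP2 that encodes another immunoproteasome subunit, was not called in any clone. In WM115 clone 4.2 it had 68.4 ± 12.6 TPM (n = 3) against 119.9 ± 12.6 TPM in WT (n = 4), a log2 difference of -0.81 with an adjusted p of 0.000705.

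Of 29 regulators of the class I genes tested in WM115, 2 rose and 1 fell in clone 1.2, 3 rose in clone 4.1, 1 rose in clone 4.2 and none was called in clones 1.1 and 1.3. Of all genes, 7.61%, 7.57% and 6.6% were called in clones 1.2, 4.1 and 4.2. Counts of 1 to 3 among 29 are near these shares. IRF1, the interferon-induced activator of class I promoters, rose in clone 1.2 (log2 difference 1.61) and in clone 4.1 (1.11). It had 38.5 ± 17.2 TPM in clone 1.2 (n = 3) against 10.98 ± 1.23 TPM in WT (n = 4). The range was 19.5 to 53.1 TPM in clone 1.2 and 9.71 to 12.3 TPM in WT. SOCS1, a feedback inhibitor of JAK kinases, rose by 1.58 and IRF4 fell by 2.40 in clone 1.2. SOCS3 rose by 1.24 in clone 4.1, and IFNGR2, a chain of the interferon gamma receptor, rose by 1.22 in clone 4.1 and 1.12 in clone 4.2. In clone 4.2, where NLRC5 was lowest, IRF1 differed by 0.11 (adjusted p 0.821). RFX5, the DNA-binding subunit through which NLRC5 is held at the X box, had 98.6 ± 12.4 TPM in WM115 WT (n = 4) and 54.8 ± 9.79 TPM in clone 4.2 (n = 3), a log2 difference of -0.84 (adjusted p 0.00303). RFX5 was lower by 2-fold or more in no clone, but it passed the adjusted p also in clones 1.1 (-0.47), 1.2 (-0.68) and 4.1 (-0.51). None of 27 regulators was called in any A375 clone.

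Of 19 interferon-response genes tested in each line, 9 fell and none rose in WM115 clone 1.1, the clone with low B2M. The largest falls were in APOL1 (-1.93) and BST2 (-1.69), and the median over the 19 was -0.96, beside -0.12 for all genes. Of all genes, 4.88%, 7.61%, 7.57% and 6.6% were called in clones 1.1, 1.2, 4.1 and 4.2. Of the 19, clone 4.2 had 2 that fell, OAS2 (-1.28) and MX1 (-1.10), and a median of -0.55. Clone 4.1 had 2 that fell, MX1 (-1.11) and IFI44 (-1.03), and 1 that rose, BST2 (1.91). In clone 1.2, IFIT1 rose by 1.14 and APOL1 fell by 1.57. In A375, IFI44L rose in clone 1.2 (1.21, from 0.205 to 1.83 TPM) and OAS1 in clone 4.2 (1.12), and none fell. In these A375 clones 4.01% and 0.473% of all genes were called. Melanocytic markers also fell in 4 WM115 clones. Of 9 tested, 2 fell in clone 1.1, 5 in clone 1.2, 7 in clone 4.1 and 6 in clone 4.2, where GPR143 rose. None of the 9 was called in clone 1.3. The summed level of the melanocytic markers was 785 to 2549 TPM in WT, 606 to 1085 TPM in clone 1.1 and 25.4 to 617 TPM in clone 1.2. It was 374 to 486 TPM in clone 4.1, 352 to 531 TPM in clone 4.2 and 403 to 1310 TPM in clone 1.3, which overlapped WT. The means of MLANA were 0.081 and 0.13 TPM in clones 4.1 and 4.2, against 25.7 TPM in WT. Of 2 immune markers tested, ITGAM fell in clones 1.1, 1.2, 4.1 and 4.2, from 4.08 TPM in WT to 0.0457 TPM or less. Of 2 endothelial markers tested, PECAM1 rose in clones 1.2 (1.64), 4.1 (1.21) and 4.2 (1.57). Of 3 keratinocyte markers, TP63 rose in clone 1.2 (1.69) and KRT14 in clones 4.1 and 4.2 (1.504 and 1.34). Of 6 fibroblast or undifferentiated markers, LUM fell in clones 1.1 (-2.34), 1.2 (-2.02) and 4.2 (-1.71), COL1A1 and PDGFRB rose in clone 1.2 (1.22 and 1.42), and DCN rose in clone 4.1 (1.74). In A375, COL1A1 and LUM rose in clone 1.2 (1.103 and 1.477), the clone with the HLA-B call, and MITF fell by 1.31 in clone 1.1. The part of these shifts in the class I values was not tested.

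Across libraries, HLA-B and HLA-C rose and dropped together more closely than any other pair of members. Pearson's r of their log2(TPM + 1) was 0.983 over the 18 A375 libraries and 0.905 over the 21 WM115 libraries. HLA-B and HLA-C overlap by 2640 bases in GENCODE 29 on the same strand and are similar in sequence, so reads may be shared between them. In WM115, NLRC5 varied most closely with PSMB9 (r 0.871) and TAPBP (0.802), and B2M with TAPBP (0.785). In A375, where NLRC5 spanned 3.06 to 7.57 TPM, its r with HLA-B was -0.08 and with PSMB9 -0.26. TAP2 ran against TAPBP in A375 (r -0.76) and had an r of 0.302 with it in WM115. Libraries of a clone share that clone and all pairs share each library's composition, so these values only describe.

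**Figure D4:**
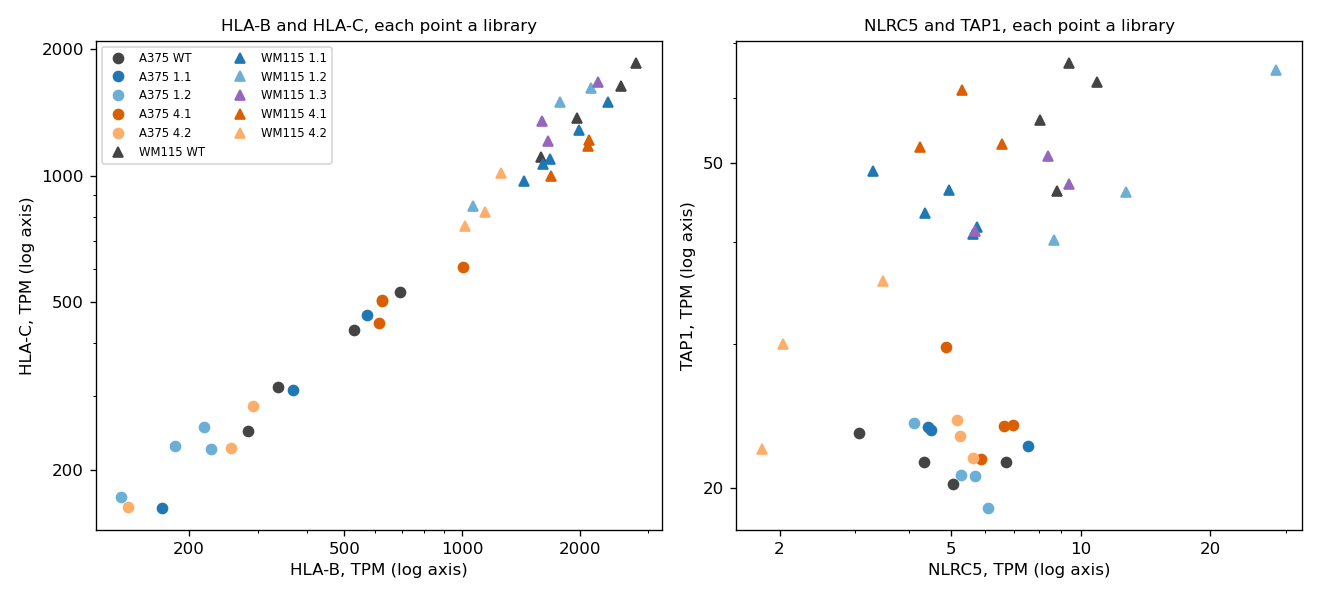
TPM of HLA-B against HLA-C and of NLRC5 against TAP1 (log axes), each point a library, circles for A375 and triangles for WM115. HLA-B and HLA-C follow a line in both lines of cells, whereas TAP1 stays between 18.9 and 29.8 TPM in A375 at any NLRC5 level and is lowest in WM115 where NLRC5 is lowest, in clone 4.2.

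The genes most like the members were sought by Pearson's r, over the 39 libraries, with the mean of the 9 members after centring within each line. Of the 15287 genes tested in both lines, those on any list were left out of the ranking. The 10 closest were led by FNDC3A (r 0.869), PLPP6 (0.856), CFI (0.843), SAMD8 (0.833) and NCKAP5L (0.832). AMIGO1 (0.822), AC067852.2 (0.821), FAM214A (0.816), SCAMP5 (0.798) and PSMB8-AS1 (0.798) followed. PSMB8-AS1 is an antisense gene whose annotated start (32844086) lies just before that of PSMB9 (32844136). Whether reads are shared between PSMB8-AS1 and PSMB9 was not tested. Of the members themselves, TAPBP (0.779), TAP1 (0.773) and HLA-C (0.769) were closest to the mean they belong to, and TAP2 was farthest (0.114 over all libraries, -0.49 in A375 and 0.455 in WM115).

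The deposited transcript table shows which annotated forms the RNA was assigned to. Of HLA-B, a median of 96.7% in A375 and 96.8% in WM115 was assigned to its 5 protein-coding transcripts, and for TAPBP the medians were 97.4% and 96.7%. B2M differed, with a median of 0.336% in A375 and 0.319% in WM115 on its 3 transcripts with the protein-coding biotype. Its RNA was placed on 4 transcripts annotated as nonsense-mediated decay (medians 58.5% and 59.6%) and 3 annotated as processed transcript (39.4% and 38.7%). Of TAP2, 48.2% and 51.9% went to the processed transcript TAP2-203. NLRC5 had medians of 56.0% in A375 and 48.8% in WM115 on its 9 protein-coding transcripts. Its libraries ranged from 38.4% to 76.2% in A375 and from 34.3% to 69.3% in WM115. Shares not given as a range are medians over libraries of what the quantification assigned. Except for NLRC5, the shares named were alike in both lines. With short reads, transcripts that share exons are hard to separate, so the gene sums are the values used above.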

How the data were processed

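Gene-level and transcript-level TPM were deposited by the authors. The submitters' processing notes name DRAGEN and GRCh38, and the versions, annotation and strand setting are not given in the sources used here. Per the labels' protocols, RNA was selected on oligo-dT beads and primed with random hexamers. In the gene table, 200 repeated lines were used once. A further 6 columns of values match no sample and were not used.

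Libraries were grouped by line and clone. The scale was log2(TPM + 1) and the tool limma 3.58.1 under R 4.3.3 (empirical Bayes with a variance trend, 1 coefficient per group, each line on its own), for genes with at least 1 TPM in at least 3 libraries of the line. Tests were two-sided, with Benjamini-Hochberg adjustment over all genes tested. A call needed an adjusted p under 0.05 and a log2 difference of at least 1. R1 against R4 and the interaction used clone means. The fit was tested on simulated data. The members and gene lists were chosen with earlier results of these data known. Named were all 9 members, at most the 2 largest rises and 2 largest falls among called genes of a list in a clone, IRF1, PSMB8, RFX5 and HLA-F in any case (1 further gene of that rule is not reported here), and the 10 genes most like the members. Cell type markers were named after their values were seen.

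Same-numbered libraries deviated together in A375 clone 4.1 and WT (r 0.326 to 0.776 over 4 pairs). In the other 8 clones at least 1 pair was at or below an r of 0.1. Alternatives were another pseudocount, no filter, median-of-ratios scaling, the replicate block, sets of mitochondrial share, leaving out each library and no minimum difference. Leaving out library 3 of WM115 clone 1.2 from the other contrasts, and the replicate block between clones, were chosen after seeing the data.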

Additional observations from a re-analysis of the deposited data

Results flagged for a closer look

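HLA-B in library 2 of A375 clone 4.1 had 1003 TPM, while the other 3 libraries of that clone had 612 to 625 TPM. The gap takes up 0.967 of the range of the 4 libraries, above the critical value of 0.829 for groups of 4. Chance flags about 1 in 20 groups, and 45 combinations of a member and a group of 4 or 5 libraries were examined. Without it, the log2 difference of HLA-B between clones 4.2 and 4.1 was -1.499 (limma adjusted p 0.0751).

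NLRC5 lay on opposite sides of the WT mean in the R4 clones of the lines. Of these 4 clones, WM115 clone 4.2 was the 1 whose difference from WT passed (limma adjusted p 0.00104), and the A375 clones overlapped the range of WT libraries. Every library of A375 clones 4.1 and 4.2 (4.88 to 6.96 TPM) lay above the A375 WT mean of 4.79 TPM, and every library of WM115 clones 4.1 and 4.2 (1.82 to 6.58 TPM) lay below the WM115 WT mean of 9.31 TPM. The difference of the effects was 1.41 on the log2 scale. The interaction test over clone means, with a value of 1.40 (SE 0.85, adjusted p 0.999891), did not pass.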

How the results depend on the processing

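No member changed the direction of a called difference under any alternative run. Counts of called members that moved by more than 1.5 times were as follows. In A375 clone 1.2 the count of 1 (HLA-B) became 0 with no filter on low values, within the low mitochondrial-share set and with the replicate block. In WM115 clone 1.1 the count of 1 (B2M) became 0 with median-of-ratios scaling and within the high mitochondrial-share set. In WM115 clone 4.2 the count of 1 became 4 with the mitochondrial-share set as a term. With no minimum difference the counts were 5 in WM115 clone 1.1, 2 in clone 1.2, 1 in clone 4.1 and 8 in clone 4.2. Leaving out 1 library at a time gave 0 to 1 called members in A375 clone 1.2, 0 to 1 between A375 clones 1.2 and 1.1, 0 to 2 between A375 clones 4.2 and 4.1, 0 to 2 in WM115 clone 1.1, 0 to 1 in clone 4.1, 1 to 5 in clone 4.2 and 0 to 1 between clones 4.2 and 4.1. Except where an alternative tested fewer libraries or more genes, the cause was not tested.

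The replicate block was also fitted where the numbers do not pair the libraries. There it gave 1 called member (HLA-B) in place of 2 between A375 clones 4.2 and 4.1 and 1 (B2M) in place of 3 between WM115 clones 1.2 and 1.1. Over all genes it called 1 in place of 122 in A375 clone 1.1, 1 in place of 105 in WM115 clone 1.3, 418 in place of 669 in A375 clone 1.2, 15 in place of 79 in A375 clone 4.2 and 127 in place of 1293 in WM115 clone 1.2. In the pairing of A375 clone 4.1 with WT it changed no call of a member. Without library 3 of WM115 clone 1.2, 6 members passed the adjusted p in WM115 clone 1.1, 3 in clone 4.1 and 8 in clone 4.2, in place of 5, 1 and 8. As TPM carry no depth, no counting error can be given for any gene.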
